A study of Mus musculus with 2 samples.

Results

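Spliced antisense models are transcript models that carry at least 1 intron and lie on the strand opposite to another gene. Every model of the class Antisense with 2 or more exons was taken, which gave 987 models in replicate 1 and 1016 in replicate 2, of 135738 and 130247 models of all kinds. Joined by chromosome, strand and the coordinates of every intron, they formed 1839 chains, out of 139496 spliced chains of all classes. The study sequenced long cDNA reads from hippocampus of untreated 2-month-old female B6CASTF1/J mice, the first-generation hybrid of C57BL/6J and CAST/EiJ. Its single group holds 2 libraries, numbered as biological replicates 1 and 2 and each made from 2 µg of total RNA. No comparison between conditions exists, so the chains are described by what they look like and by how they recur between the libraries.

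Antisense transcripts share bases with a sense gene but are copied from the other DNA strand. Some start near the sense promoter and run away from it, some start inside the gene or behind it, and a few are known regulators of their partner, as at imprinted genes. An intron is removed at short signals read on the transcribed strand, usually GT at its 5′ end and AG at its 3′ end. Read on the other strand the same intron begins with CT and ends with AC, so its outer letters tell on which strand it reads as a splice pair. In cDNA libraries the strand of a read has to be worked out after sequencing, and the sources used here do not say how this was done.

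Sequence at the introns was read from the GENCODE M21 transcripts on mm10, always on the strand of the antisense model. The first set shows the exon joins of the 6 chains with the most reads, because in each of them the antisense model leaves out exactly the bases that the sense gene splices out; for Crebbp, with several introns, a single join is shown. Capitals mark the 3 bases on either side of the join.
Slitrk5: cgtgcattttacCTCTGTtcccatctgcac
Sh3glb2: gagccgcctctcCTTCGAaatcgttttcca
Ubl3: gaggcgcaaattAATCATatccgccgggac
Bcl2l1: agccaagataagGTTATTcaaatctatctc
Prpf38b: gatcttcttggaGATCTGgatcgccgtctc
Crebbp: gagatcccaggaTGGTTTgttggtttcgct

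The second set shows both edges of introns, with the outer intron letters in capitals. It is a selection from the chains in both libraries in which annotated exons happen to span the edges. Among such chains with an unmatched intron, those opposite Gm44950, Pdxk and Vgf are not printed. The Gm44950 intron begins with CT and ends with GC. Those of Pdxk, 41 bases long, and Vgf begin with GT and end with AG. Nr2f2, Snrnp70 and Celsr2 have an intron that the sense gene also has, and Lmbrd1, Fancd2 and Araf have an intron at coordinates that no annotated gene has on the other strand, although in Araf it lies within 10 bases of one.
Nr2f2, 5′ edge: ctctgtacagCTgcaggagg
Nr2f2, 3′ edge: aggccgatACcttcccgtct
Snrnp70, 5′ edge: tttcccgtctCTgccagtag
Snrnp70, 3′ edge: aacagcatACctttctctcc
Celsr2, 5′ edge: gaagagaaatCTggagaggc
Celsr2, 3′ edge: cccgactcACtcagagccag
Lmbrd1, 5′ edge: ttctaacaggGTaagtggca
Lmbrd1, 3′ edge: tctttcacAGgtttccaaat
Fancd2, 5′ edge: aggatccgagGTaagatggg
Fancd2, 3′ edge: ttctggttAGgtactgcaga
Araf, 5′ edge: aatgtcttccGTacctgcag
Araf, 3′ edge: tccccattAGacttacaaaa

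The chains were rare and most were seen once. Models of the class held 1464 of 826596 reads not on spike-ins in replicate 1, which is 0.177% (exact 95% Clopper-Pearson interval 0.168 to 0.186%). In replicate 2 they held 1593 of 745492 reads, or 0.214% (0.203 to 0.224%), and the mean over the libraries was 0.195 ± 0.0259% (SD, n = 2). These intervals cover counting error only, since reads carry no molecular identifiers here. Of all antisense reads, spliced and unspliced, 1.39% and 1.61% were spliced. A single read supported 83.6% of the chains found in replicate 1 and 84.3% of those in replicate 2, and 1448 of the 1839 chains had 1 intron. Their median length without introns was 2444 bases.

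The same chain often carried another class label in the other library, so reads of a chain were counted whatever the label. In all, 77 chains were called Antisense in 1 library and Genomic, ISM (a piece of a longer model), NIC or NNC (unannotated combinations or sites), or Intergenic in the other. The chain opposite Slitrk5, a synaptic adhesion gene, is an example: it had 108 reads in replicate 1, all labelled NIC, and 128 in replicate 2, all labelled Antisense. Opposite Ubl3, which encodes a membrane-anchored ubiquitin-like protein, 46 reads labelled ISM in replicate 1 stood beside 34 labelled Antisense in replicate 2. With reads of any label the chains held 1698 and 1682 reads, closer together than the label alone. A further 491 and 432 spliced models of other classes sat in antisense genes with 901 and 630 reads, and are not members unless they share a chain with one.

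Of the 1839 chains, 241 had a read in each library, and 164 had the label Antisense in both. These 241 chains took 807 reads in replicate 1 and 807 in replicate 2, or 47.5% and 48.0% of the reads of all chains. With the same label in both, 16.6% of the antisense chains of replicate 1 and 16.1% of those of replicate 2 recurred. For models of annotated genes with an unannotated splice site the shares were 13.9% and 15.3%, for unannotated combinations of annotated sites 30.7% and 32.7%, and for annotated models 80.3% and 82.0%. Reads per chain differ between these classes: the median over both libraries was 1 read for antisense chains, as for the 2 unannotated classes, and 6 for annotated models. Among chains of 2 reads, 36.4% of the antisense ones were in both libraries. The shares were 40.5% for unannotated splice sites, 43.3% for unannotated combinations and 48.0% for annotated models.

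No abundant antisense chain was called different between the libraries. Among 7813 spliced chains of all classes with at least 20 reads together, a two-sided exact binomial test with Benjamini-Hochberg adjustment called 3, or 0.0384%, at an adjusted p under 0.05 and at least 2-fold. Of the 11 antisense chains tested, 0 were called, and 1 had an unadjusted p under 0.05, the Slitrk5 chain (log2 ratio of replicate 2 to replicate 1 of 0.39, exact binomial p = 0.0371, adjusted p = 0.726). The widest ratio was opposite Mbnl1, a regulator of splicing, with 21 and 9 reads (log2 ratio −1.03, adjusted p = 0.799 by the same exact test). At such counts a ratio of this size was not called, so the lack of calls does not show equal levels. The median size of the log2 ratio was 0.37 over the antisense chains tested and 0.26 over all chains tested. The test compares 2 libraries by their reads and takes reads as independent, which may make its p-values too small.

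**Figure D1:**
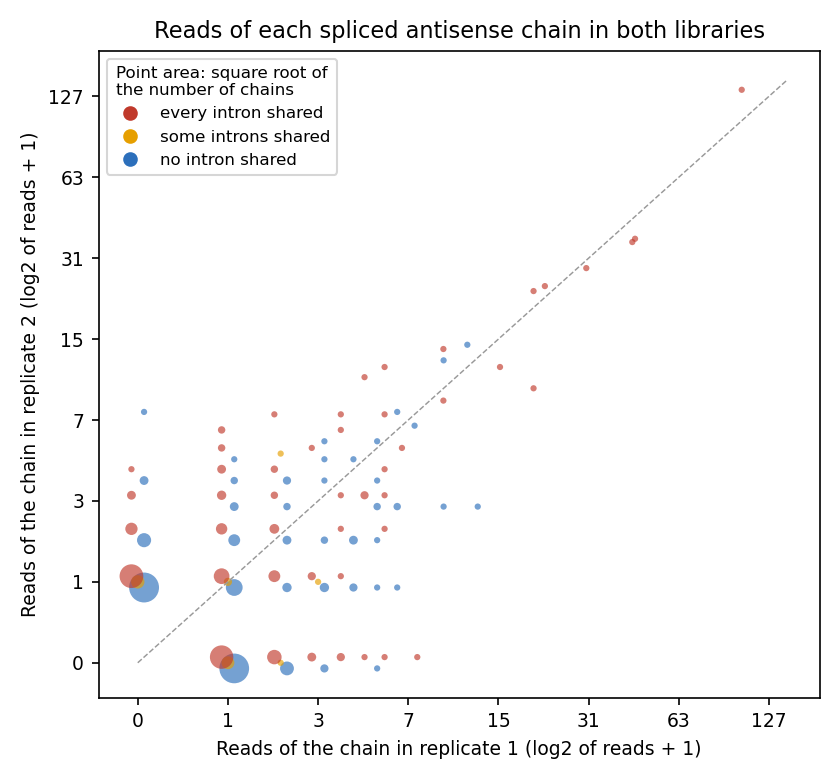
Reads of each of the 1839 chains in replicate 1 (horizontal) and replicate 2 (vertical), both as log2 of reads + 1 with ticks in reads; point area follows the square root of the number of chains at that pair of values, colours give how many introns are shared with the opposite strand, and colours are shifted slightly so that they can be told apart. Most chains sit at 1 read in 1 library and 0 in the other, and the abundant ones lie near the dashed line of equal reads.

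An annotated intron of the opposite strand supplied every intron of 581 chains, at exactly the same coordinates. In 45 chains some introns and in 1213 no intron matched in this way. Per library, 34.1% and 33.0% of the chains had every intron shared (mean 33.6 ± 0.772%, SD, n = 2), and they held 833 of 1698 and 803 of 1682 reads, or 49.1% and 47.7%. Among chains in both libraries they numbered 117, beside 5 with some and 119 with no intron shared. In 580 of the 581 chains the shared intron belonged to the sense gene that the files list for the model. Only a few further matches appeared when both splice sites could lie up to 10 bases away: 58 of the 1213 unmatched chains then had every intron matched.

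Where both edges of an intron could be read, the outer letters followed this split. They could be read for 124 of 2403 antisense introns, or 5.16%, because the sequence came from annotated transcripts and not from a genome, so no share over all introns can be given. All 48 readable shared introns had CT-AC on the antisense strand, which is GT-AG on the sense strand. These introns were chosen for sitting at annotated introns of the opposite strand, nearly all of them canonical there. Their form thus follows from the choice and is not a separate result. Of 73 readable introns with no splice site in common with the opposite strand, 61 had GT-AG and 10 had GC-AG on their own strand, and 2 had the reverse form. Only 23 of the 73 were not inside an annotated exon of the opposite strand, 19 with GT-AG and 4 with GC-AG. Unmatched introns inside such an exon were short, with a median of 205 bases, against 1118.5 for all 1604 with no site in common. An exact repeat of at least 6 bases at the intron edges was found in 6 of 61, against 2.50% of annotated introns. An intron with exactly 1 site in common was readable 3 times, each with the reverse form. Of 14136 readable annotated introns 99.8% had a canonical pair on their own strand, and of 7549 readable unannotated introns in models of annotated genes 97.6% did. Nr2f2 and Lmbrd1, printed above, stand for the 2 patterns. The part of strand assignment in the shared introns was not tested.

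Spike-in RNAs, which have a known strand, give a level for reads placed on the wrong strand. In replicate 1, 75 of 9644 spike-in reads (0.778%, exact Clopper-Pearson interval 0.612 to 0.974%) were in antisense models, and in replicate 2, 47 of 6799 (0.691%, 0.508 to 0.918%). Over all annotated introns the antisense chains held 0.0225% and 0.0238% of intron reads. These are shares of intron reads, in which a read counts at each of its introns, and not of whole reads. They cannot be set against the spike-in level. At the 470 and 477 shared introns themselves, 1102 of the reads were antisense in replicate 1 against 21426 sense reads (4.89%), and 1062 in replicate 2 against 18947 (5.31%). These introns were found by their antisense reads, so 4.89% and 5.31% only describe where the reads lie. In replicate 1, 73 of the 470 introns had fewer sense than antisense reads and 51 had no sense read, and in replicate 2, 53 of 477 and 41.

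The exons of the shared-intron chains did not simply repeat sense exons. On average 40.6% of their bases lay in annotated exons of the sense gene, 58.3% in its introns and 1.14% outside it, and 90 of the 581 lay wholly in sense exons. In chains with no shared intron 13.6% of bases lay in sense exons, 71.1% in sense introns and 15.3% outside. A whole annotated intron of the sense gene lay unspliced inside an exon of 317 of the 581 chains (54.6%), against 183 of 1213 (15.1%) of those with no shared intron. The last intron of a sense transcript made up 260 of the 770 shared introns (33.8%), against 40509 of 155964 annotated introns with a sense read, and the first intron made up 24.9% against 23.4%. The Sh3glb2 model, described next, kept 11 annotated sense introns inside its exons.

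**Figure D2:**
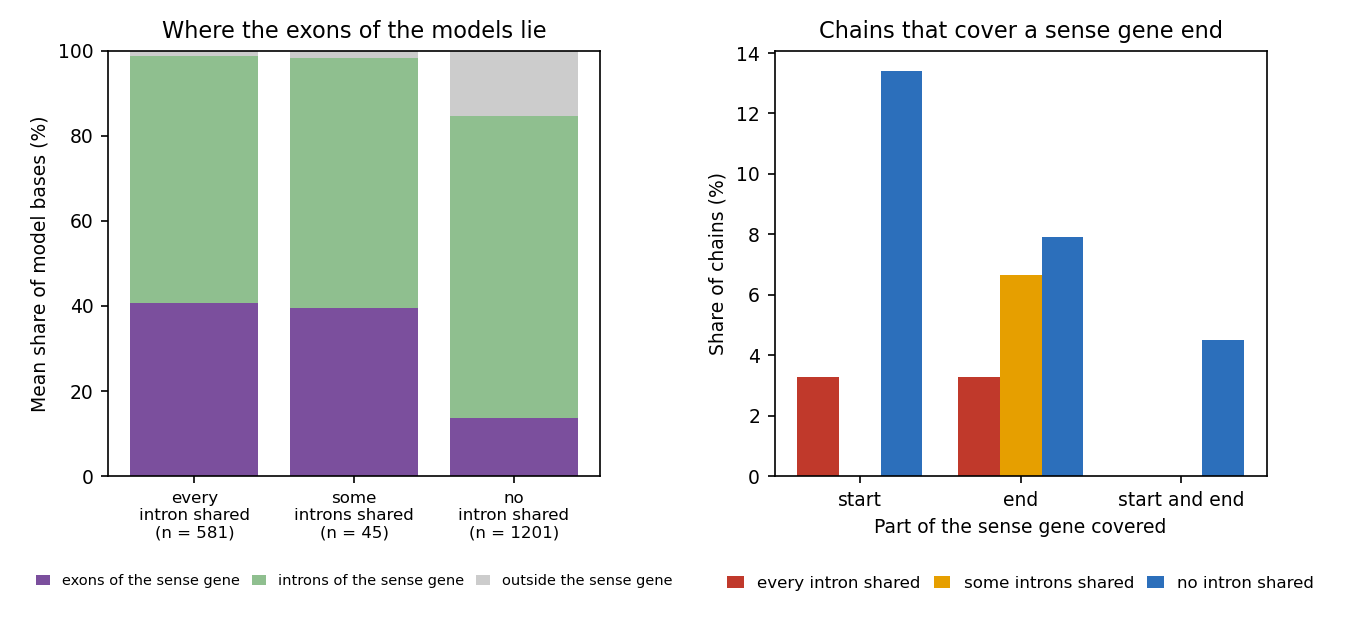
Left, mean share of model bases (%) in exons of the sense gene, in its introns and outside it, for chains with every, some or no intron shared with the opposite strand; right, share of the chains (%) of each kind that cover the annotated start, the end, or both, of the sense gene. Sense exons hold 40.6% of bases where every intron is shared and 13.6% where none is, and a sense start is covered most often where no intron is shared.

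The leading chain lies opposite Slitrk5, which encodes a transmembrane protein of the synapse, at chr14:111675097-111681633 on the minus strand of mm10. It had 108 and 128 reads in replicates 1 and 2, against 47 and 33 of the sense gene. The antisense reads outnumbered those of the gene in each library, and at its 1 intron of 3214 bases the sense strand had 17 and 15 reads. All of its exon bases lie in Slitrk5 exons and it covers the annotated start of the gene.

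Sh3glb2, which encodes the endophilin B2 membrane-bending protein, had the next chain, at chr2:30345820-30351683 on the plus strand, with 47 and 35 reads. The sense gene had 321 and 266 reads, so here the sense strand was well above the antisense strand in both libraries. The model begins on the very base where a sense transcript ends, splices out a single intron of 203 bases and keeps 51.3% of its bases in sense introns.
The Ubl3 chain was different in build: its 314 bases lie wholly in sense exons and span an intron of 39950 bases at chr5:148511894-148552157 on the plus strand. Its 46 and 34 reads stood against 263 and 203 of the gene, and the same intron had 253 and 200 sense reads.

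Bcl2l1, which encodes the survival protein Bcl-xL, had an antisense chain of 32 and 27 reads at chr2:152824645-152830618, plus strand, against 118 and 114 sense reads. Its 283-base intron had 36 and 34 sense reads, so at the intron itself the strands were close. Prpf38b, which encodes a pre-mRNA processing factor, had 23 antisense reads in each library at chr3:108903147-108906983, plus strand, against 7 and 8 sense reads. The antisense strand was the higher one at Prpf38b, by a ratio of 3.07 over both libraries.

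The chain opposite Crebbp had the most introns among the leading chains. Crebbp encodes CBP, a histone acetyltransferase that acts as a transcriptional coactivator. Its 6-exon antisense model at chr16:4128444-4213997, plus strand, has all its introns at annotated Crebbp introns and had 21 and 22 reads, against 14 and 13 sense reads. Crebbp models of the annotated, NIC and NNC classes together had 1 and 0 reads. On the antisense strand of the gene lay 38 and 30 unspliced reads. The antisense chain was thus the most common spliced form read at this locus in both libraries, although sense reads of Crebbp are few for a long mRNA.

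Mbnl1 had 21 and 9 antisense reads against 14 and 12 sense reads, over an intron of 65789 bases at chr3:60529549-60601299, minus strand. The antisense chain was above the gene in replicate 1 and below it in replicate 2. Igf1r, the receptor for insulin-like growth factor 1, had 16 and 11 antisense reads against 8 and 10 sense reads, and its 672-base chain at chr7:67952827-68004355, minus strand, lies wholly in sense exons and covers the gene's start. Lyrm4, which encodes a protein of iron-sulfur cluster assembly, had 10 and 13 antisense reads against 32 and 24. Its model overlaps Fars2, an annotated gene on the same strand as the antisense chain.

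Nr2f2, the nuclear receptor COUP-TFII, had a 3-exon chain with 10 and 8 reads against 28 and 23 sense reads at chr7:70353993-70360593, plus strand. Both of its introns are shared and both read CT-AC, as the edges of one of them show above. Carmil1, which encodes a regulator of actin capping, had 6 and 11 antisense reads against 6 and 4 sense reads. In replicate 2 these reads carried the label ISM. The lincRNA gene Gm26652 had 5 and 10 antisense reads and 0 sense reads in either library, so only the strand opposite to the annotated one was read at this depth, with 17 and 21 unspliced antisense reads as well.

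Smaller shared-intron chains repeated these forms. Snrnp70, which encodes the 70K protein of the U1 splicing particle, had 6 and 7 reads over a 129-base intron and a second chain of 2 and 4 reads, against 91 and 82 sense reads. Rragc, a Rag GTPase of the amino-acid sensing pathway, had 7 and 5 reads against 143 and 120. Gtf2a1, a subunit of the general factor TFIIA, had 4 and 7 antisense reads over 3 exons against 7 and 1. Adgrl2, a latrophilin adhesion receptor, had 4 and 6 against 7 and 5. AC149090.1, on an unplaced contig, had 6 and 4 reads against 1697 and 1512 sense reads, the lowest ratio of antisense to sense reads of the 5 genes in this group.

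**Figure D3:**
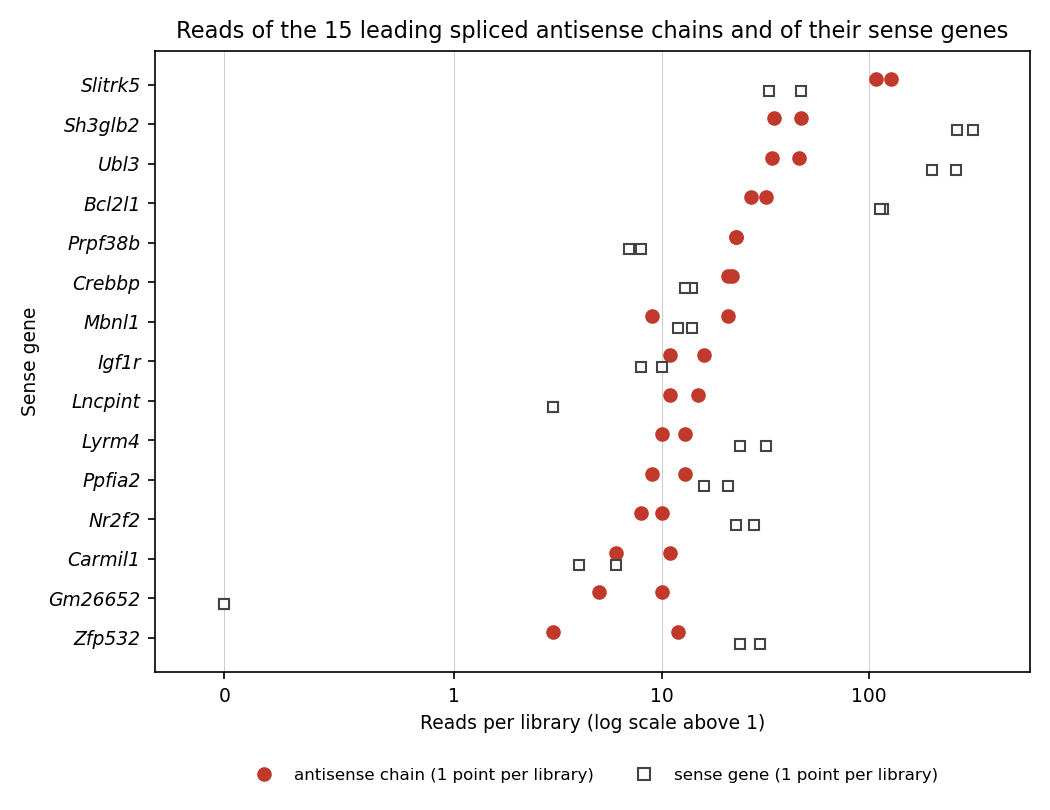
Reads per library (log scale above 1) of the 15 chains in both libraries with the most reads, as filled circles, and of their sense genes, as open squares, with 1 point per library. Antisense circles lie right of the sense squares in both libraries at Slitrk5, Prpf38b, Crebbp, Igf1r, Lncpint and Gm26652, and left of them at Sh3glb2, Ubl3, Bcl2l1, Lyrm4, Ppfia2, Nr2f2 and Zfp532.

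The 119 chains in both libraries with no shared intron lay mostly in sense introns and had fewer reads. They held 264 and 249 reads together, against 535 and 549 of the 117 chains with every intron shared. The leading one lies opposite Lncpint, a p53-responsive long noncoding RNA gene, at chr6:31201403-31205950 on the plus strand, with 11 and 15 reads against 3 and 3 sense reads. Its exons fall wholly in Lncpint introns, and 137 and 167 unspliced reads lay on the same antisense strand. The removed stretch is 53 bases long.

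Ppfia2, which encodes the active-zone scaffold liprin-alpha 2, had 9 and 13 reads over an intron of 110608 bases at chr10:106632390-106749730, minus strand, against 21 and 16 sense reads. Unspliced antisense reads numbered 100 and 102 there, far above the spliced ones. Zfp532, a zinc finger gene, had 12 and 3 reads over a 43-base stretch. The Cdk17 chain, opposite a cyclin-dependent kinase gene, had 7 reads in each library against 241 and 265 sense reads. It counts as unmatched although both of its splice sites lie within 10 bases of an annotated Cdk17 intron. Huwe1, a ubiquitin ligase gene, had 6 and 8 reads over a 63-base stretch inside a sense intron, and Auts2, a neurodevelopmental gene, had 9 and 3 over 62 bases.

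Stretches this short were found in unmatched introns. Of 1633 unmatched introns, 54 (3.31%) were under 50 bases and 162 (9.92%) under 100 bases. Of 770 shared introns 0 were under 50 bases and 32 (4.16%) under 100 bases, and of 155964 annotated introns with a sense read 1 and 8465 (5.43%) were. The median was 1136 bases for unmatched, 1266.5 for shared and 1406 for annotated introns. Eprs, a tRNA synthetase gene, with 6 and 3 reads over 271 bases, and Zdhhc20, a palmitoyltransferase gene, with 3 and 6 over 2425 bases, had longer unmatched introns.

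**Figure D4:**
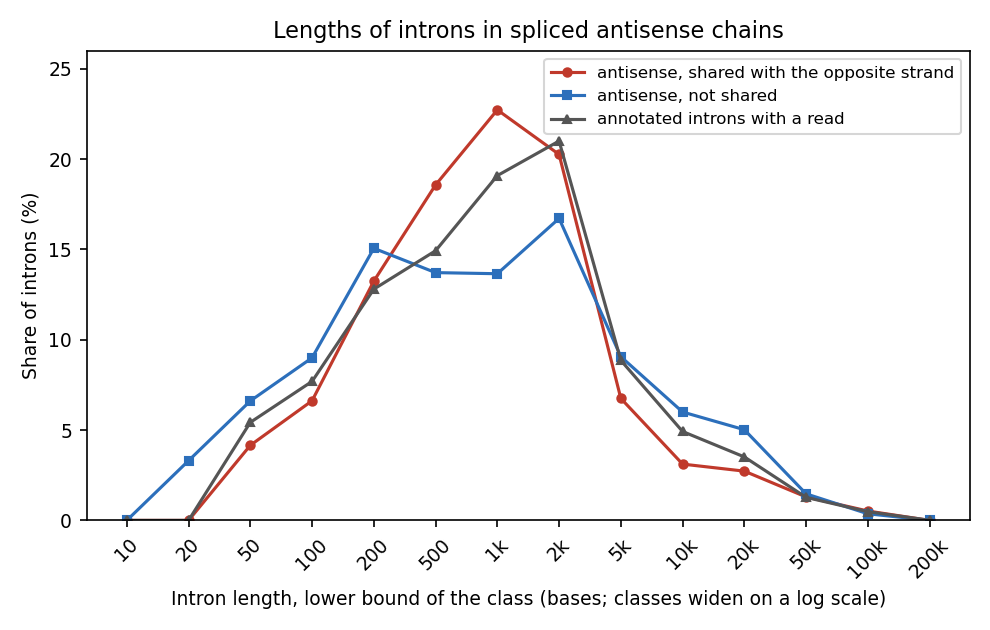
Share of introns (%) in length classes that widen on a log scale, labelled by their lower bound in bases, for antisense introns shared with the opposite strand (n = 770), antisense introns not shared (n = 1633) and annotated introns with a sense read (n = 155964). Introns under 50 bases appear among the unshared antisense introns (3.31%), at 0 among the shared ones and once among the annotated ones.

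Among chains with some introns shared, 5 were in both libraries, led by those opposite Tulp3 and Iqgap2. Tulp3, a gene of ciliary trafficking, had 2 and 5 reads in a 3-exon chain. Iqgap2, which encodes a scaffold of the cytoskeleton, had 3 and 1 reads in a 5-exon chain, and Arpp21, a phosphoprotein gene of neurons, had 1 read in each library in a 4-exon chain, as many as the chains opposite Map3k12 and Utp18. In all 5 chains the remaining introns lay within 10 bases of annotated ones.

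Most chains began and ended inside the sense gene. Of the 1827 chains with an annotated sense gene, 180 covered its annotated start, 117 its end, 54 both and 1476 neither. Per library 19.1% and 18.5% covered at least 1 end (mean 18.8 ± 0.390%, SD, n = 2). Chains with no shared intron covered the start in 161 of 1201 cases (13.4%), the end in 95 (7.91%) and both in 54 (4.50%), against 19 (3.27%), 19 (3.27%) and 0 of 581 chains with every intron shared. For the other 12 chains the sense gene is itself an unannotated model. How far a gene extends depends on which of its transcripts is taken: with the end of any annotated transcript in place of the outer ends, the share that covered an end was 59.3%.

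Ends of models often fell on exactly an annotated base. Among shared-intron chains the 5′ end lay within 50 bases of a sense 3′ end in 139 cases, and in 138 of these it was the same base. Their 3′ end lay within 50 bases of a sense start in 112 cases, all on the same base. Among chains with no shared intron 46 of 55 such 5′ ends and 31 of 38 such 3′ ends were on the same base, and 110 had their 5′ end on a sense start. The sources used here do not say how ends of models were set.

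Slitrk5, Crebbp and Igf1r, all with shared introns, led the chains in both libraries that cover a sense start. Each of these models ends on the start base itself and does not run past it. Of the 26 start-covering chains in both libraries, 21 had no shared intron. Cdk17 led these, and the rest had 2 to 6 reads. Ppm1e, a neuronal protein phosphatase gene, had 4 and 2 reads against 141 and 128 sense reads, and 79.7% of the model's bases lay outside the gene. Nefm, the medium neurofilament gene, had 4 and 2 reads against 156 and 129. Glis1, a zinc finger factor gene, had 1 and 3 antisense reads against 1 and 0 sense reads, so neither strand was more than barely detected. The Ppm1e, Nefm and Glis1 models run from inside the gene out past its start, on the other strand. The Cdk17 model, like those of Slitrk5, Crebbp and Igf1r, ends on the sense start with 0% of its bases outside the gene.

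In 29 chains the antisense 5′ end fell in the RefSeq promoter window of the sense gene on GRCm38.p6, from 250 bases before to 50 bases after a start. A promoter entry was found for the sense gene of 1384 chains. All 29 had no shared intron, and 5 were in both libraries, opposite Fgfrl1, Glis1, Cfap100, Idh3b and Opcml. All 5 windows hold both the RefSeq start and the antisense 5′ end, and 3 of them are printed as examples. Fgfrl1 and Glis1 had the most reads of the 5. Their antisense 5′ ends coincide with the RefSeq start or nearly so: on the base after it in Fgfrl1 and on the start base itself in Glis1. The sources do not say how ends of models were set, so whether such ends are measured starts was not tested. In Cfap100 the antisense 5′ end lay 105 bases before the RefSeq start. Each window is on the sense strand, at chr5:108693979-108694278 (plus), chr4:107434469-107434768 (plus) and chr6:90428431-90428730 (minus), with capitals at every match to the motifs searched.
Fgfrl1: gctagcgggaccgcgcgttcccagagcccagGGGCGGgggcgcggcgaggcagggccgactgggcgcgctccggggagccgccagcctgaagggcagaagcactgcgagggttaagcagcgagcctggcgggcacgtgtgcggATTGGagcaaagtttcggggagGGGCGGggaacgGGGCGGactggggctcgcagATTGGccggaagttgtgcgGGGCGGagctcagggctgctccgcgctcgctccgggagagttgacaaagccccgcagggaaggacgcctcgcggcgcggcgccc
Glis1: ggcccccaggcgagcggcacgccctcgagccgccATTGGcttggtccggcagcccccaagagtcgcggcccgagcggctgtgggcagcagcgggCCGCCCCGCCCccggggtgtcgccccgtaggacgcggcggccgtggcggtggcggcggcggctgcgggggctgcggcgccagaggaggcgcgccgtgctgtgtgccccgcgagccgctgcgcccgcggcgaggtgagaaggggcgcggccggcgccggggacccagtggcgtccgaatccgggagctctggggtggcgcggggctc
Cfap100: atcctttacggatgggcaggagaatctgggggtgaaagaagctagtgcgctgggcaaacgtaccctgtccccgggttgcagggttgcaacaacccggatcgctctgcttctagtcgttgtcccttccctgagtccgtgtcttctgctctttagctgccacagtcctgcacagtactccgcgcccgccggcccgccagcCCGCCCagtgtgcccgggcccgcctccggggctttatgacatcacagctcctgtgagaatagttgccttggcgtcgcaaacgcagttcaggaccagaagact

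The motifs were the GC box GGGCGG, the CCAAT box CCAAT and the TATA box TATAAA, each on both strands. The 29 chains fall in 28 distinct windows, since both chains opposite Thrb, a thyroid hormone receptor gene, share a window. A GC box was found in 19 of the 28 windows, against 35.7% of 32851 RefSeq promoter windows of the same length. CCAAT was found in 10 of 28, against 37.4% of all, and TATAAA in 2 of 28, against 13.6% of all. The median number of CG pairs was 29 in these windows and 7 over all windows. The set of all windows was not limited to genes read in these libraries. These contrasts are therefore not shown to be particular to windows with an antisense 5′ end. A match is a run of letters and was not tied to any factor. The printed windows of Fgfrl1, Glis1 and Cfap100 had 4, 2 and 1 GC boxes and 2, 1 and 0 CCAAT matches. The windows of Idh3b and Opcml, not printed, had 0 GC boxes and 1 and 3 CCAAT matches. Fgfrl1, which encodes a receptor of the fibroblast growth factor family without a kinase, had 3 and 1 antisense reads, against 14 and 12 sense reads. Cfap100, a gene of motile cilia, had 1 and 1 against 2 and 9.

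Chains that cover a sense end, or a whole gene, were fewer still. Rubcnl, an autophagy gene, led them with 5 and 6 antisense reads against 2 and 0 sense reads, a ratio of 5.50 over both libraries. Its intron of 18645 bases is unmatched in the annotation. The same intron was also read on Rubcnl's own strand, with 5 and 1 reads in a chain that the files list as antisense to an unannotated gene and that is not among those sense reads, so the ratio would be lower with it. 9030025P20Rik had 3 and 5 reads against 8 and 10, and Celsr2, an atypical cadherin gene, had 1 and 3 against 86 and 98 with its shared intron printed above. H2-M10.2, a class I-like histocompatibility gene, and Olfr1366, an olfactory receptor gene, are both spanned whole. Their chains had 4 and 1 reads and 1 and 1 reads, the genes had 0 sense reads, and 100% of the model bases lay outside the gene, which sits inside an intron of the chain.

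Against their sense genes the chains were mostly minor. Over the 238 chains in both libraries with an annotated sense gene, the median ratio of antisense to sense reads was 0.0556 in replicate 1 and 0.0667 in replicate 2 where the gene had reads, and 18 chains had more reads than their gene over both libraries together. For 12 this held in each library, Slitrk5, Prpf38b, Crebbp and Lncpint among them. Reads are compared here and not molecules per length, and a sense read can cover a longer transcript. Besides Rubcnl, the ratios among chains of at least 10 reads were led by Lncpint (4.33), Prpf38b (3.07), Slitrk5 (2.95) and Carmil1 (1.70). Unspliced antisense reads were more common than the spliced chain for 159 of the 238 chains.

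Sense genes of the chains were somewhat higher and longer than annotated genes with a read in each library, a set that sense genes were not taken out of. Their median level was 26.6 and 25.5 CPM (reads per 1000000 reads not on spike-ins) in replicates 1 and 2, against 19.4 and 20.1 for 14787 annotated genes with a read in each library. Sense genes were not held to that read filter, and 99 of them had no sense read. Genes with a shared-intron chain had medians of 36.3 and 37.6 CPM. Their median spans were 48.5 kb for all sense genes and 23.3 kb for annotated genes. Unspliced antisense reads were present at 82.0% of sense genes, against 58.2% of annotated genes, without matching for span. In all 1565 sense genes were named in the files, and 1695 chains lay opposite a protein-coding gene, 58 opposite a lincRNA gene and 12 opposite a gene annotated as antisense.

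The longest chains in exon number were single reads. On the unplaced contig of AC149090.1 a model of 25 exons had 1 read in replicate 1 and one of 20 exons had 1 read in replicate 2. Cep112, a centrosome gene, had a chain of 10 exons, and Alk, a receptor tyrosine kinase gene, Gm43688, Nbea and Rptor had chains of 8 exons, each with 1 read. None of the introns in these chains was shared. Some of these models lay largely beyond the sense gene, with 97.1% of the Nbea model and 55.5% of the Rptor model outside, while the Alk model lay wholly in Alk introns.
Several chains opposite 1 gene were uncommon. Xpo6, Tjp1, Brinp2, Cdk14, Dock9 and Gm20388 had 4 chains each, with 3 and 3 reads together at Xpo6, a nuclear export gene, and 1 and 6 at Brinp2.

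Gene groups of brain biology held chains in small numbers. Over 14776 detected gene symbols 9.54% had a spliced antisense chain, and 1.48% had one in both libraries. Glutamate and GABA receptor genes had chains at 7 of 30, with Grin2b, an NMDA receptor subunit, at 3 and 1 reads over a shared intron of 127096 bases. Vesicle release genes had 3 of 22, with Unc13a, a priming factor, at 1 and 2 reads. Scaffold and kinase genes of the postsynapse had 3 of 18, myelin genes 2 of 15 and neural transcription factors 3 of 27, with 0 in both libraries in each group. Astrocyte genes had 1 of 16, the glutamate transporter gene Slc1a3, with chains of 3 and 1 and of 2 and 1 reads. The Slc1a3 chain of 3 and 1 reads leaves out only 41 bases. Imprinted genes had 4 of 18, with Rian, a maternally expressed noncoding RNA gene, at 1 and 1 reads over 4 exons with all introns shared.

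Ribosomal protein and respiratory chain genes were taken by symbol. Ribosomal protein symbols had 3 of 95, and 1 of these is Rps6kb1, which encodes a kinase and falls in the group by its name alone, with 1 and 4 reads. Respiratory chain symbols had 9 of 101, with Sdha at 1 and 3, Cox16 at 2 and 1 and Uqcrc2 at 1 and 1 reads in both libraries. The Cox16 chain leaves out only 49 bases. With 1 to 9 genes per group, these shares are read as counts beside the 9.54% of all genes and not as differences.

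Markers of the labelled tissue were present. Snap25 and Slc17a7 of neurons, Prox1 and C1ql2 of dentate granule cells, Aldoc of astrocytes and Mbp of oligodendrocytes were read in both libraries, while of the choroid plexus genes Aqp1 and Otx2 had 0 reads and Ttr had 271 and 131. A count of 1 was worth 1.21 and 1.34 CPM, below the 3.63 and 4.02 CPM that a count of 0 allows, so a chain of 1 read that is missing from the other library cannot be called absent there.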

How the data were processed

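Long-read RNA sequencing of hippocampus gave 2 libraries of 1 group. The deposited tables hold whole-number counts of reads per transcript model, not normalized, and the deposited structure files, which name TALON as their source per the file headers, hold exons, model classes and the sense gene of each antisense gene. The deposited text files name mm10 and GENCODE M21. The sources used here name no aligner, version or method of strand assignment. The libraries were processed apart, so models were joined by chromosome, strand and every intron, and reads of a chain were counted in any class. Gene ends and introns came from GENCODE M21, and the sense gene was the one the files list. An intron was shared where an annotated intron of the opposite strand had the same coordinates. A read share has an exact 95% Clopper-Pearson interval, and where nothing was counted the upper limit was taken as 3 counts; both cover counting error only.

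Libraries were compared with a two-sided exact binomial test per chain against the ratio of reads not on spike-ins, for chains with at least 20 reads together, with 0.5 added to each count for log2 ratios; the test was checked on simulated counts. Alternatives changed read minimums, the tolerance at splice sites (10 bases), the shortest intron (50 bases), the gene ends, the scaling and the libraries. Members, lists and the rule for named genes were chosen with earlier results of these data known. The rule takes the 15 leading chains in both libraries, the 3 leading chains of each kind of position and sharing, the 5 with the most exons, the 5 genes with the most chains (6 with ties), the 5 highest ratios, and list members in both libraries. Outside this rule, and named after their values were seen, are the chains with an end in a promoter and those whose intron edges are printed. The same holds for those opposite Cdk17, Huwe1, Auts2, Snrnp70, Rragc, Gtf2a1, Adgrl2, Eprs, Zdhhc20, Ppm1e, Nefm, Map3k12, Utp18, Thrb, Gm44950, Pdxk and Vgf. Some items that the rule or the lists take are not reported here. Levels in CPM are reads per 1000000 reads not on spike-ins. Python 3.11.15, pandas 2.3.3, numpy 2.4.6, scipy 1.17.1, R 4.3.3 and edgeR 4.0.16 (TMM scaling only) were used.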

Additional observations from a re-analysis of the deposited data

How the results depend on the processing

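The 1839 chains became 360 with at least 2 reads and 81 with at least 5, and 1035 to 1045 when either library was left out. The 241 chains in both libraries became 69 with at least 2 reads in each and 19 with at least 5, and 164 with the class Antisense in each, an alternative chosen after seeing the data. The read share of 0.195% was 0.274% of spliced reads, 0.177 to 0.214% when either library was left out, and 0.216% for reads of the chains in any class. The share of chains over a sense gene end, 18.8%, was 22.7% within 500 bases, 59.3% with any annotated transcript, 15.5% in chains of both libraries and 23.6% by reads, and 18.5 to 19.1% with either library left out. The share with every intron shared, 33.6%, was 38.3% within 10 bases, 48.5% in chains of both libraries, 48.4% by reads, 48.7% with at least 2 and 51.6% with at least 5 reads, and 33.0 to 34.1% with either library left out. These read minimums, and the share for reads in any class, were added after seeing the data. Of readable introns 52.3% were canonical, 29.2% in both libraries and 36.6% by reads, and 49.2 to 55.3% with either library left out. The median ratio to sense reads, 0.0611, was 0.107 over sense models of the annotated, NIC and NNC classes only. It was 0.0556 to 0.0667 with either library left out. The cause of these moves was not tested. No antisense chain was called different between libraries with 10 reads as the minimum, without the fold limit, with TMM or with spliced reads as the total; the unadjusted p was under 0.05 for 1. No paired analysis was possible because the series holds a single group. Depth limits the 1479 chains with 1 read, whose recurrence cannot be judged.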
